A study of Homo sapiens with 4 samples.

Results

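The EGFR family of receptors and the growth factors that bind them were compared between a Wnt reporter-positive and a Wnt reporter-negative line derived from MDA-MB-231, an established triple-negative human breast cancer line. The 10 genes, EGFR, ERBB2, ERBB3, AREG, EREG, HBEGF, TGFA, BTC, NRG1 and EPGN, were found by matching Ensembl IDs to symbols, out of 43714 genes in the count table, and all 10 were among the 30952 with enough counts to test. The reporter-positive line was more than 80% EGFP-positive and the reporter-negative line more than 95% EGFP-negative after 8 rounds of sorting and expansion. Each line gave 2 RNA-seq libraries.

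Per the design text, both lines came from low-passage MDA-MB-231 cells stably carrying 7TGP, a plasmid whose EGFP is driven by 7 TCF sites and serves as a readout of beta-catenin signalling, and the labels give selection in puromycin at 3 ug/mL and culture in DMEM with 10% serum. The treatment label names the plasmid for the reporter-positive line and calls the reporter-negative line the control. No separate cultures are named for the libraries of a line, so p-values reflect only library-to-library spread, possibly technical. With 1 line per reporter state, reporter activity and whatever else distinguishes the lines cannot be told apart. In these bulk libraries, fewer cells with a transcript and less of it per cell cannot be told apart either.

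Total counts were 62539034 and 55894092 in the reporter-positive libraries and 63034563 and 58429705 in the reporter-negative libraries. All 8 markers of mesenchymal triple-negative cells were detected, with summed levels of 3212 to 3478 CPM (the usual counts-per-million unit, with TMM library sizes) in the reporter-positive and 4541 to 4626 CPM in the reporter-negative libraries. VIM, at 1299 ± 60.7 CPM in the reporter-positive and 2668 ± 63.1 CPM in the reporter-negative line (SD, n = 2), gave a difference larger than that of the sums. VIM and CAV1 fell, LOX, MSN and CD44 rose, and 3 did not pass. Markers of luminal breast epithelium summed to 268 to 292 CPM in the reporter-positive and 349.95 to 358 CPM in the reporter-negative libraries, mostly from KRT8 and KRT18. CDH1 and PGR stayed under 1 CPM in both lines. Leukocyte markers summed to 158 to 171 CPM and endothelial markers to 60.9 to 78.2 CPM in the reporter-positive libraries, against 172 to 178 CPM and 75.9 to 90.8 CPM in the reporter-negative libraries. CSF1R and PECAM1 gave most of those sums, and CD3E, which defines T cells, had at most 7 counts in any library. Their part in the results below was not tested.

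EGFR, ERBB2, ERBB3 and ERBB4 are receptor tyrosine kinases that signal as pairs through the RAS-ERK and PI3K-AKT pathways. Their ligands are made as membrane-bound precursors and are released by metalloproteases: AREG, TGFA and EPGN bind EGFR, HBEGF, EREG and BTC bind EGFR and ERBB4, and the neuregulins bind ERBB3 or ERBB4. ERBB2 has no known ligand and acts as a partner for the other receptors, while ERBB3 has a weak kinase and relies on its partner. EGFR is a well-studied receptor of basal and triple-negative breast cancer cells.

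In the reporter-positive line, the ligand genes NRG1, HBEGF, EREG and TGFA rose 1.52-, 1.37-, 1.34- and 1.31-fold, and the receptor genes ERBB3 and ERBB2 were 1.95- and 1.27-fold lower. EGFR, AREG, BTC and EPGN did not pass the test. Thus 4 members rose and 2 fell by edgeR's quasi-likelihood test at an adjusted p under 0.05, with Benjamini-Hochberg adjustment over all genes tested. Of all genes tested, 11.6% rose, 10.9% fell and 22.4% changed in either direction. Among protein-coding genes the share changed was 29.5%. The median log2 fold change of the members was 0.22, against -0.00462 over all genes tested. Members were chosen with earlier results of these data known, so these counts are a description.

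**Figure D1:**
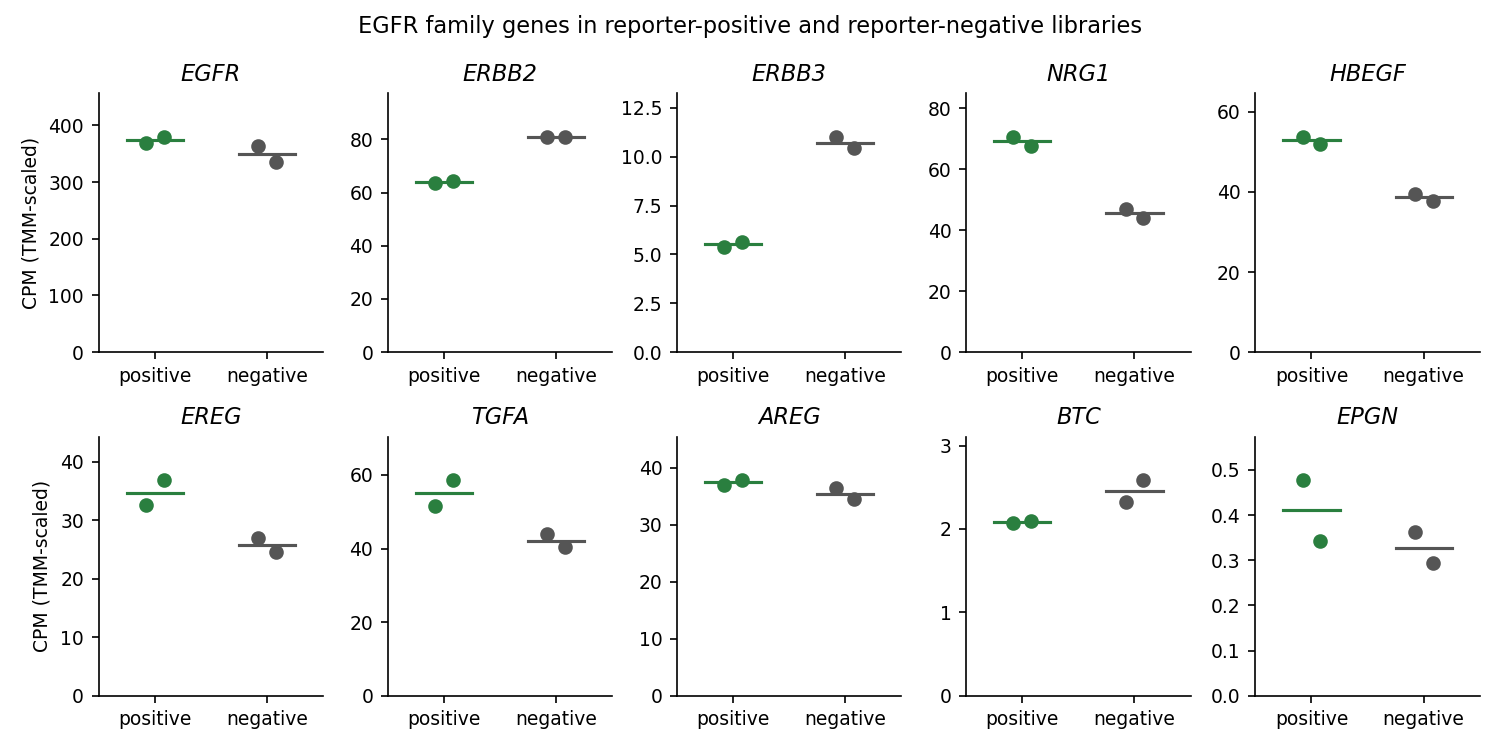
Level of each EGFR family gene in TMM-scaled CPM (vertical axes from 0) in the 2 reporter-positive (green, left) and 2 reporter-negative (grey, right) libraries; points are libraries and lines are means. ERBB2 and ERBB3 lie lower, and NRG1, HBEGF, EREG and TGFA higher, in both reporter-positive libraries, and the groups overlap for EPGN.

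ERBB3 (chromosome 12, 56076799 to 56103505, forward strand; gene positions are those of GENCODE 29, GRCh38) showed 339 and 296 counts in reporter-positive libraries, against 701 and 641 in the reporter-negative libraries. Those counts correspond to 5.39 and 5.64 CPM in the reporter-positive and 11.0 and 10.4 CPM in the reporter-negative libraries. Both reporter-positive libraries were thus well below both reporter-negative ones. Its log2 fold change was -0.96 ± 0.11 (SE; adjusted p = 2.10e-06 by edgeR). The last 2175 bases of the span are shared with ENSG00000257411, a coding gene on the same strand with 853 and 777 counts in the reporter-positive and 926 and 1003 in the reporter-negative libraries. That gene did not pass (log2 fold change -0.12, adjusted p = 0.407 by edgeR), and how many reads of ERBB3 are its own was not tested.

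ERBB2, the HER2 gene (chromosome 17, 39687914 to 39730426, forward strand), was at 63.8 and 64.2 CPM in the reporter-positive libraries, against 80.9 and 81.1 CPM in the reporter-negative libraries. Libraries of a line were nearly equal, and the lines did not overlap. The log2 fold change was -0.34 ± 0.07 (SE; adjusted p = 0.00108 by edgeR). ERBB2 overlaps MIEN1 and PGAP3 on the opposite strand, whose counts were 22.3% and 14.6% of its own and neither of which passed (adjusted p = 0.608 and 0.988 by edgeR). An alternative added after the data were seen took away all counts of both. ERBB2 then had 2364 and 1966 counts in the reporter-positive and 3445 and 3270 in the reporter-negative libraries. The log2 fold change was then -0.52 (adjusted p = 1.43e-05 by edgeR). MIEN1 and PGAP3 share 1931 and 8884 bases with ERBB2, and their counts may include reads of ERBB2 itself. Too much may thus have been taken away, and how the shared reads divide was not tested.

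EGFR (chromosome 7, 55019021 to 55211628, forward strand) was the most highly counted member, at 369 and 380.3 CPM in the reporter-positive libraries, against 364 and 335 CPM in the reporter-negative libraries. The lines did not overlap, but neither did they for 57.7% of all genes tested. Its log2 fold change of 0.10 had a 95% interval of -0.07 to 0.27 (adjusted p = 0.437 by edgeR). ERBB4, a receptor outside the 10 genes, had 525 and 287 counts in the reporter-positive and 527 and 493 in the reporter-negative libraries and did not pass (adjusted p = 0.373 by edgeR).

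Ratios of counts within a library do not depend on scaling. EGFR had 5.78 and 5.92 counts per ERBB2 count in the reporter-positive libraries, against 4.50 and 4.13 in the reporter-negative libraries. Per ERBB3 count, EGFR had 68.4 and 67.4 in the reporter-positive and 33.0 and 32.1 in the reporter-negative libraries. As counted, EGFR was thus higher relative to ERBB2 and ERBB3 in the reporter-positive libraries. Counts of ERBB2 and ERBB3 may include reads of the overlapping genes named above, and the ratios were not tested. The summed level of the 3 receptors was 438 and 450.2 CPM in the reporter-positive and 456 and 426 CPM in the reporter-negative libraries, which overlap.

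NRG1, the gene of neuregulin 1 (chromosome 8, 31639386 to 32767959, forward strand), was counted 4446 and 3541 times in the reporter-positive libraries, against 2982 and 2713 in the reporter-negative libraries. Its levels were 70.7 and 67.5 CPM in the reporter-positive and 46.9 and 44.1 CPM in the reporter-negative libraries. Every reporter-positive value lay above every reporter-negative one. The log2 fold change was 0.60 ± 0.07 (SE; adjusted p = 2.46e-06 by edgeR). NRG1-IT1, a noncoding gene inside NRG1, had 20 to 32 counts a library.

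The neuregulin genes differed among themselves. NRG2, a neuregulin gene outside the 10, was at 7.19 and 6.98 CPM in the reporter-positive libraries, against 15.8 and 14.5 CPM in the reporter-negative libraries. It fell by 1.10 on the log2 scale (standard error 0.10; adjusted p = 6.42e-08 by edgeR). An antisense gene within its span, ENSG00000250692, fell too, with counts 17.8% of those of NRG2. There were 9.84 and 9.67 counts of NRG1 per count of NRG2 in the reporter-positive libraries, against 2.97 and 3.03 in the reporter-negative libraries. NRG3 and NRG4 did not pass, at 6.39 ± 0.300 and 2.24 ± 0.254 CPM in the reporter-positive and 6.18 ± 1.37 and 2.32 ± 0.341 CPM in the reporter-negative line (SD, n = 2; adjusted p = 0.862 and 0.904 by edgeR).

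HBEGF, the heparin-binding EGF-like growth factor gene (chromosome 5, 140332843 to 140346631, reverse strand), was at 53.8 and 52.0 CPM in the reporter-positive libraries, against 39.5 and 37.8 CPM in the reporter-negative libraries. No other listed gene overlaps it, and the lines were clearly apart. The log2 fold change was 0.45 ± 0.07 (SE; adjusted p = 7.88e-05 by edgeR). TGFA, the transforming growth factor alpha gene (chromosome 2, 70447280 to 70554193, reverse strand), was at 51.7 and 58.6 CPM in the reporter-positive and 43.9 and 40.4 CPM in the reporter-negative libraries. Both reporter-positive libraries were above both reporter-negative ones, with a wider spread than for HBEGF. Its log2 fold change was 0.39 ± 0.08 (SE; adjusted p = 9.54e-04 by edgeR). Without the reporter-negative library numbered 2 it was 0.33 and did not pass (adjusted p = 0.0537 by edgeR). EGF itself, outside the 10 genes, rose 1.61-fold, with 8.02 ± 1.09 CPM in the reporter-positive and 4.97 ± 0.00765 CPM in the reporter-negative line (SD, n = 2; adjusted p = 5.00e-04 by edgeR).

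**Figure D2:**
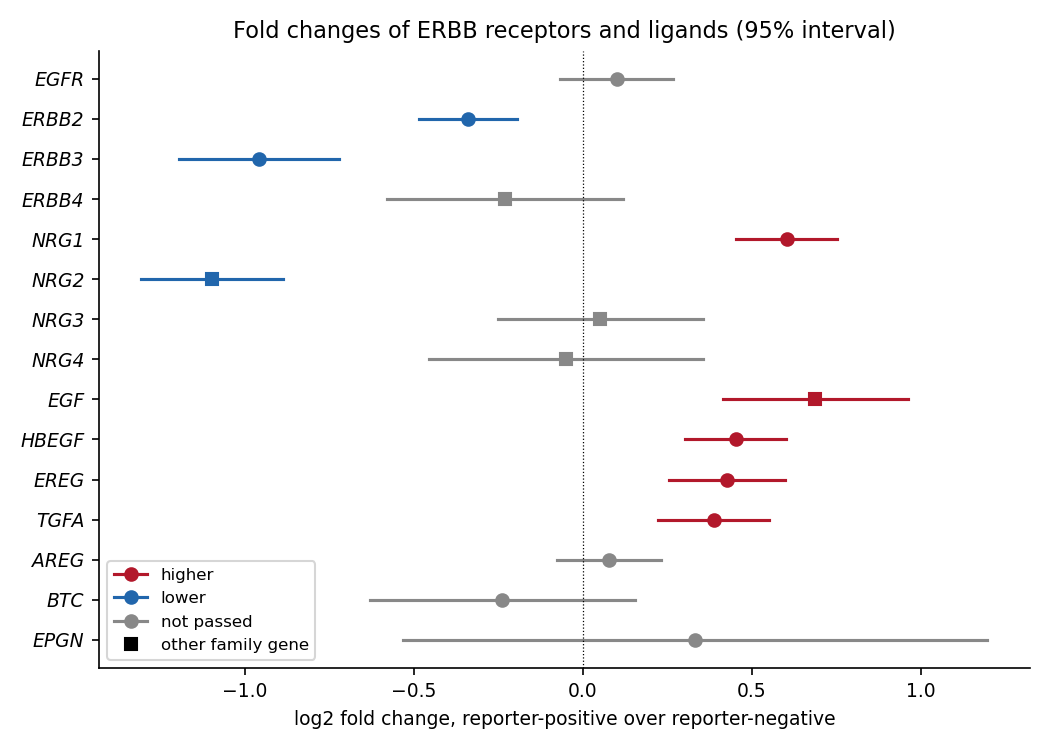
Log2 fold change, reporter-positive over reporter-negative (horizontal axis), with 95% interval, for the 10 genes (circles) and the other ERBB4, EGF and neuregulin genes (squares); red rose, blue fell, grey did not pass. NRG1 and NRG2 lie on opposite sides of 0, at 0.60 and -1.10, and the interval of EPGN is the widest.

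EPGN, EREG, AREG and BTC lie in a row on chromosome 4 beside a group of chemokine genes. EREG, the epiregulin gene (74365143 to 74388751, forward strand), was at 32.6 and 36.9 CPM in the reporter-positive libraries, against 27.0 and 24.7 CPM in the reporter-negative libraries. The lines did not overlap. Its log2 fold change was 0.43 ± 0.08 (SE; adjusted p = 6.04e-04 by edgeR). AREG, the amphiregulin gene (74445134 to 74455009, forward strand), starts 80.0 kb from the start of EREG and was at 37.1 and 37.9 CPM in the reporter-positive and 36.4 and 34.6 CPM in the reporter-negative libraries. These values nearly meet: the log2 fold change was 0.08 with a 95% interval of -0.08 to 0.23 (adjusted p = 0.531 by edgeR), and it was -0.00625 with scaling to total counts. In hg19, the build named in the submitters' processing notes, a further near-identical copy of AREG is present, so reads of AREG may have been split or lost, and its level is uncertain. Per AREG count, EREG had 0.879 and 0.974 counts in the reporter-positive libraries, against 0.742 and 0.713 in the reporter-negative libraries, and the difference of the 2 fold changes was not tested.

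BTC, the betacellulin gene (74744759 to 74794686, reverse strand), had 130 and 110 counts in the reporter-positive and 148 and 159 in the reporter-negative libraries. Its log2 fold change of -0.24 had a 95% interval of -0.63 to 0.15 (adjusted p = 0.430 by edgeR). EPGN, the epigen gene (74308473 to 74315307, forward strand), was counted 30 and 18 times in the reporter-positive and 23 and 18 in the reporter-negative libraries, with a log2 fold change of 0.33 whose 95% interval reached from -0.53 to 1.20 (adjusted p = 0.653 by edgeR). At this depth no difference was detectable for EPGN.

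All 5 other tested coding genes within 500 kb of the 4 ligand genes rose, beside 2491 of all 16957 protein-coding genes tested. CXCL1, CXCL3 and CXCL2, genes of neutrophil-attracting chemokines with near-identical sequences that may share reads, had log2 fold changes of 3.24, 1.61 and 1.58. CXCL1 had 7538 and 7015 counts in the reporter-positive libraries, against 895 and 779 in the reporter-negative libraries (adjusted p = 2.40e-16 by edgeR). MTHFD2L, a mitochondrial folate enzyme gene next to EPGN, rose 1.30-fold, at 38.5 ± 0.0980 CPM in the reporter-positive and 29.6 ± 1.06 CPM in the reporter-negative line (SD, n = 2). PARM1, on the far side of BTC, rose 1.58-fold. AREG and BTC thus stood between genes that rose on either side. For the 6 members on other chromosomes, the nearest tested coding gene on each side that does not overlap the member was taken, 12 genes in all. Of these, 2 rose (SEC61G beside EGFR and FAM136A beside TGFA), 1 fell (ANKHD1 beside HBEGF) and 9 did not pass. Among all protein-coding genes tested, 29.5% changed in either direction. GRB7, an adaptor gene next to ERBB2 that is often amplified with it in HER2-positive tumours, was at 2.56 ± 0.310 CPM in the reporter-positive and 1.76 ± 0.155 CPM in the reporter-negative line (SD, n = 2; adjusted p = 0.0513 by edgeR).

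**Figure D3:**
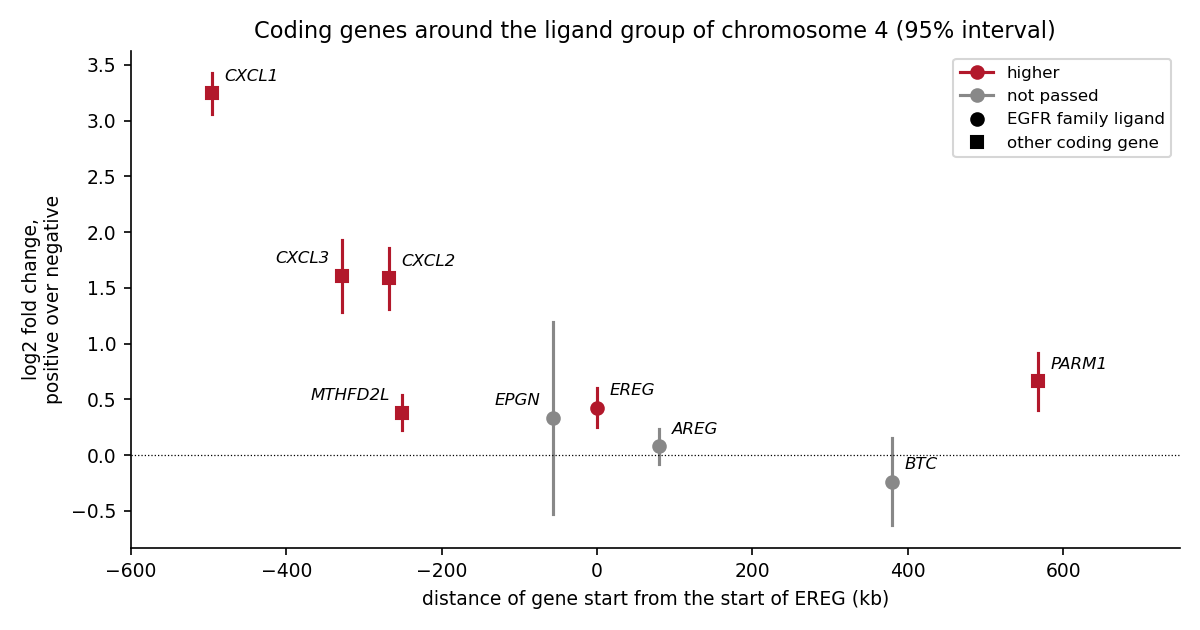
Log2 fold change, reporter-positive over reporter-negative (vertical axis), with 95% interval, of tested coding genes against the distance of their start from the start of EREG in kb (horizontal axis); circles are EGFR family ligands, squares other genes, red rose and grey did not pass. CXCL1 stands highest at 3.24, and AREG and BTC lie near or under 0 between EREG and PARM1.

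Promoters of the ligand genes that rose and of the neighbouring AREG, which did not pass, are shown because the reporter itself is read through TCF sites. The windows are the 250 bases before each RefSeq start on GRCh38.p14, written 5′ to 3′ along the gene, with capitals for the motifs found: EREG at chr4:74364895-74365144, forward strand, AREG at chr4:74444886-74445135, forward strand, HBEGF at chr5:140346604-140346853, reverse strand and the further upstream of the TGFA windows at chr2:70553827-70554076, reverse strand.
EREG: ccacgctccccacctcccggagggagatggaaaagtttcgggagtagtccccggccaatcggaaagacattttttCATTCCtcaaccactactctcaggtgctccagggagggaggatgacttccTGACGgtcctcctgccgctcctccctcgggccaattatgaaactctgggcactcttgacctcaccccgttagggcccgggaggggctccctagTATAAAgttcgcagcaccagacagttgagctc
AREG: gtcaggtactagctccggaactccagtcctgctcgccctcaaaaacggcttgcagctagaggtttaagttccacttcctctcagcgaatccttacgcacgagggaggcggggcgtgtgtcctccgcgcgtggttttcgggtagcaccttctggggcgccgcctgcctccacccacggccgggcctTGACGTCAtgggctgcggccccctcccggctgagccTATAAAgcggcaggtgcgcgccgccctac
HBEGF: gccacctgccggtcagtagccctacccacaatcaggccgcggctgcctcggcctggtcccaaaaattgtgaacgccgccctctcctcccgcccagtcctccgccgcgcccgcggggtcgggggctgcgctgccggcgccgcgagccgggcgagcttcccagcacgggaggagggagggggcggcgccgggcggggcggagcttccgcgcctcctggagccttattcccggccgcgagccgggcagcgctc
TGFA: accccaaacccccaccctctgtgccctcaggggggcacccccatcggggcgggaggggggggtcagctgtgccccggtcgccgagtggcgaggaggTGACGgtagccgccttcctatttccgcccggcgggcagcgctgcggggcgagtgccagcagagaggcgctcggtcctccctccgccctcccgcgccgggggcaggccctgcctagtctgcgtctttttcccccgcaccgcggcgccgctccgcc
RefSeq starts were matched for 8 of the 10 genes, with 10 windows in all, and ERBB3 and NRG1 were not matched. The 6 motifs were searched on both strands. The TCF/LEF core CTTTGA was in none of the 10 windows and in 11.2% of 35116 RefSeq promoter windows of this length. The cyclic AMP response element TGACGTCA was in AREG at position -65 from the start, and in 1.65% of all windows. Its core TGACG, which overlaps it there, was also in EREG at -125, TGFA at -154 and EPGN at -44, and in 21.2% of all windows. The other TGFA window, at chr2:70553447-70553696, held none of the 6 motifs. The TEAD motif GGAATG was in EREG on the opposite strand at -175, in EGFR, and in 11.9% of all windows. TATAAA was in EREG at -32, in AREG and EPGN at -29, in EGFR, and in 10.7% of all windows. The AP-1 motif TGANTCA was in EGFR and ERBB2 windows and in 6.57% of all windows. All matches of EGFR were in its window at chr7:55109589-55109838, which lies within the gene. Its other window, at chr7:55018767-55019016 beside the gene start, held none of the 6. HBEGF held none of the 6. A match describes letters and is not a binding site shown in these cells. Sites with other letters, or outside these 250 bases, were not searched, so an absent match does not show that a gene lacks such sites.

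Levels between genes were set per length. Per kb of merged exons, EGFR stood highest in the reporter-positive line at 29.9 ± 0.640 CPM, followed by AREG at 22.7 ± 0.337, HBEGF at 17.5 ± 0.427 and TGFA at 11.1 ± 0.989 CPM per kb (SD, n = 2). ERBB2 at 6.20 ± 0.0282, NRG1 at 6.10 ± 0.200 and EREG at 6.08 ± 0.530 CPM per kb did not differ beyond their spread. BTC, ERBB3 and EPGN were at 0.740, 0.611 and 0.226 CPM per kb. The reporter-negative line had EGFR at 27.9 ± 1.66, AREG at 21.5 ± 0.784, HBEGF at 12.8 ± 0.400, TGFA at 8.49 ± 0.500, ERBB2 at 7.85 ± 0.00807, EREG at 4.52 ± 0.291, NRG1 at 4.02 ± 0.174 and ERBB3 at 1.19 ± 0.0472 CPM per kb (SD, n = 2). BTC was at 0.873 CPM per kb there. By exon length, ERBB3 stood below BTC in the reporter-positive line and above it in the reporter-negative line. Among tested coding genes ranked by exon length only, EGFR lay at percentile 94.5 and ERBB3 at 22.7 in the reporter-positive line. In the reporter-negative line they lay at 94.1 and 29.8.

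The counts appear to take in introns, in which case exon length would overstate genes with long introns. Per kb of gene span, HBEGF at 3.84 ± 0.0934 and AREG at 3.79 ± 0.0562 CPM per kb came first in the reporter-positive line and did not differ beyond their spread, with EGFR next at 1.95 ± 0.0416 CPM per kb (SD, n = 2). NRG1, whose span is 1128574 bases, came near the end at 0.0613 CPM per kb. ERBB3 at 0.207 and 0.402 CPM per kb of span lay above BTC at 0.0417 and 0.0492 in the reporter-positive and reporter-negative lines. The first place of EGFR, the rank of NRG1 among the ligands, and the order of ERBB3 and BTC therefore rest on the length used.

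Genes tied to ligand shedding and maturation, protease inhibitors included, numbered 18 tested, of which 8 rose, 3 fell and 7 did not pass. Those that passed were 61.1%, beside 29.5% of protein-coding genes, in a list chosen with earlier results of these data known. The median log2 fold change was 0.20. RHBDF2, which encodes iRhom2, a protein that ADAM17 needs to mature and reach the surface, rose to 72.4 ± 4.40 CPM in the reporter-positive line, against 49.2 ± 2.24 CPM in the reporter-negative line (SD, n = 2; adjusted p = 9.00e-06 by edgeR). Its paralogue RHBDF1, which encodes iRhom1 with a like role, moved the other way, with 48.2 ± 8.15 CPM in the reporter-positive and 66.8 ± 1.63 CPM in the reporter-negative line (SD, n = 2; adjusted p = 0.00211 by edgeR). ADAM17, the main sheddase of AREG, EREG, HBEGF and TGFA in mouse cells, rose 1.18-fold (adjusted p = 0.0195 by edgeR), and ADAM10, which releases EGF and BTC in mouse cells, was 1.20-fold lower (adjusted p = 0.00981 by edgeR). RHBDF1 and these proteases were picked with their values in view. ADAM17 overlaps 3 other listed genes, ADAM10 overlaps 6 and RHBDF1 overlaps 1. TIMP3, an inhibitor of ADAM17, fell to 271 ± 24.9 CPM in the reporter-positive line, against 376 ± 4.71 CPM in the reporter-negative line (SD, n = 2). TIMP3 lies wholly within SYN3, which had nearly the same counts on the opposite strand, 101.6% of those of TIMP3.

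The intramembrane protease gene RHBDL2 rose 1.88-fold, with 253 and 224 counts in the reporter-positive and 150 and 126 in the reporter-negative libraries. It overlaps RRAGC-DT, which had 635% of its counts and did not pass. BACE1, whose product cleaves neuregulin 1 in mice, rose 1.29-fold, and CEP164, RNF214 and BACE1-AS, which overlap it, also rose.

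Of 26 tested inhibitors of the receptors and genes of receptor turnover, 4 rose, 4 fell and 18 did not pass, with a median of -0.00947. The 8 that passed were 30.8%, near the 29.5% of protein-coding genes. CBL, taken up below, is counted among the 4 that rose. LRIG1, a transmembrane inhibitor of the ERBB receptors, rose 8.75-fold. It had 2353 and 2024 counts in the reporter-positive libraries, against 301 and 242 in the reporter-negative libraries (log2 fold change 3.13, standard error 0.10; adjusted p = 3.55e-15 by edgeR). LRIG1 shares 9320 bases with SLC25A26 on the opposite strand, which had 2187 and 1882 counts in the reporter-positive and 1051 and 966 in the reporter-negative libraries, and how the shared reads divide was not tested. PTPRJ, a phosphatase gene that acts on EGFR, rose 1.56-fold, and NEDD4, a ubiquitin ligase gene of receptor trafficking, rose 1.49-fold. The 4 that fell were SOCS5 and SOCS3, suppressors of cytokine signalling, by 0.53 and 0.54, the endosomal sorting gene STAM by 0.44 and the phosphatase gene PTPN1 by 0.30 on the log2 scale, named after their values were seen. ERRFI1, a feedback inhibitor of EGFR named after its values were seen, was at 452 ± 6.12 CPM in the reporter-positive and 472 ± 10.5 CPM in the reporter-negative line (SD, n = 2; adjusted p = 0.671 by edgeR).

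CBL, the ubiquitin ligase gene that marks EGFR for degradation, was called higher in the table as deposited, with 10705 and 9441 counts in the reporter-positive and 4156 and 3827 in the reporter-negative libraries. Its last 5398 bases are shared with MCAM, an adhesion molecule gene on the opposite strand with 7647 and 6908 counts in the reporter-positive and 1059 and 1094 in the reporter-negative libraries. Taking the counts of MCAM away left CBL at 3058 and 2533 in the reporter-positive and 3097 and 2733 in the reporter-negative libraries. The log2 fold change was then 0.06 (adjusted p = 0.667 by edgeR), against 1.46 with the counts as deposited. This subtraction was added after the data were seen, and no rise of CBL itself can be read from these counts.

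**Figure D4:**
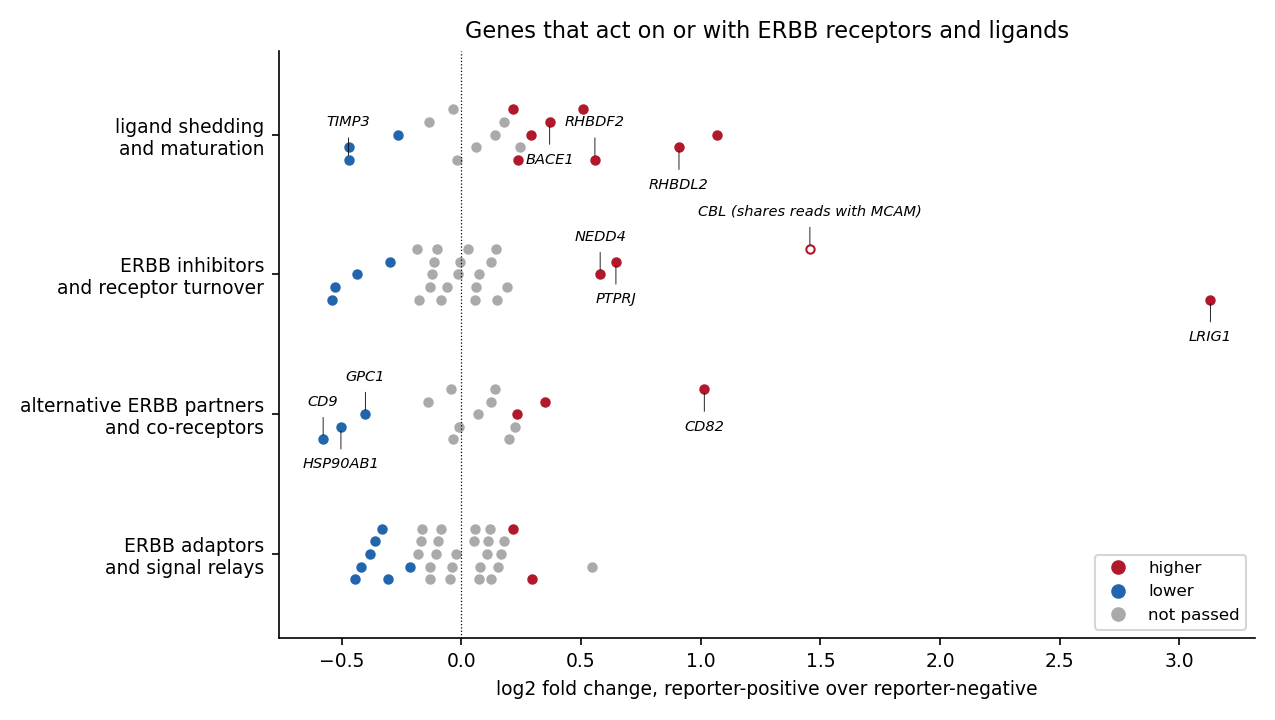
Log2 fold change, reporter-positive over reporter-negative (horizontal axis), of tested genes in 4 lists of genes that act on or with ERBB receptors and ligands; each point is a gene, red rose, blue fell and grey did not pass, and vertical offsets within a list carry no value. LRIG1 stands apart at 3.13, and the open point is CBL, whose value was 0.06 once the counts of MCAM were taken away.

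Among partners and co-receptors, 3 of 15 rose, 3 fell and 9 did not pass, with a median of 0.07. The 6 that passed were 40%, beside 29.5% of protein-coding genes. CD82, a tetraspanin gene linked to EGFR uptake, rose 2.02-fold to 122 ± 2.82 CPM in the reporter-positive line, against 60.2 ± 3.94 CPM in the reporter-negative line (SD, n = 2). CD9, a tetraspanin gene whose product binds the HBEGF precursor, fell to 54.0 ± 6.71 CPM in the reporter-positive line, against 80.5 ± 0.653 CPM in the reporter-negative line (SD, n = 2). HSP90AB1, a chaperone gene, fell by 0.50 and the glypican gene GPC1 fell by 0.40 on the log2 scale.

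Adaptors and signal relays below the receptors numbered 32 tested, of which 2 rose, 7 fell and 23 did not pass, with a median of -0.04. The 9 that passed were 28.1%, near the 29.5% of protein-coding genes. NCK1 and STAT5B were the 2 that rose, by 0.30 and 0.22 on the log2 scale, named after their values were seen. Both overlap other listed genes. The genes named for the smallest adjusted p were all lower. VAV2, an exchange factor gene, fell by 0.44, the kinase gene SRC by 0.42 and MAP2K1, the MEK1 gene, by 0.33 on the log2 scale. MAP2K1 overlaps SNAPC5, which also fell.

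Over the 4 lists, 17 of 91 tested genes rose and 17 fell, 37.4% in all, beside 29.5% of protein-coding genes. Scaling to total counts gave 10 that rose and 24 that fell. The number that rose was 28 without the reporter-positive library numbered 1, and 9 and 10 without the reporter-negative libraries numbered 1 and 2. The number that fell was 11 without the reporter-negative library numbered 1. CBL is among those counted as higher.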

How the data were processed

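RNA was sequenced from 2 reporter-positive and 2 reporter-negative libraries, 1 ug of total RNA each per the labels' protocols, and the batch label is shared. The authors deposited a table of raw counts, a column for each library and a row for each Ensembl ID. Per the submitters' processing notes, the tools were HISAT2, Bowtie2 and DESeq2 and the build hg19, with no versions. Which counter, annotation and strand setting were used is not given in the sources used here, while all 43714 IDs are in GENCODE 29 (GRCh38), which gave positions and exon lengths, and 43289 have a current symbol. SYN3 has 101.6% of the deposited counts of TIMP3, which lies in it on the opposite strand, so counts appear to cover whole spans on both strands, and overlapping genes cannot be separated. Of the IDs, 27833 overlap another.

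Counts were tested with edgeR 4.0.16 (R 4.3.3) after filterByExpr with a minimum count of 10 and total of 15, with TMM scaling, a robust quasi-likelihood F test, Benjamini-Hochberg adjustment over 30952 genes, threshold 0.05. The standard error is the log2 fold change over the root of F, and 95% intervals use its degrees of freedom. Scripts were tested on simulated data, where false calls exceeded the nominal share and some changes of the size seen in the members were missed. Libraries of a line differed beyond counting noise (chi-square over degrees of freedom 17.1 reporter-positive, 32.8 reporter-negative). At 55894092 to 63034563 counts per library, counting error is small except for EPGN and BTC. Alternatives were other scalings, filters, DESeq2 1.42.0, limma-voom (limma 3.58.1), a library number block, genes without overlaps, leaving out each library and, added after the data were seen, subtracting counts of overlapping genes.

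Members and lists were chosen with earlier results of these data known. Text names all members, the other ERBB family genes, up to 4 passing genes per list with the smallest adjusted p, overlapping and nearest coding genes, and coding genes within 500 kb of the chromosome 4 ligands, less items not reported here. Promoters and motifs used Python 3.11.15 and RefSeq windows.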

Additional observations from a re-analysis of the deposited data

How the results depend on the processing

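Of 113 values of the 10 genes across the alternative settings, 111 kept their direction and their side of the threshold. The exceptions were TGFA (0.33, adjusted p = 0.0537 by edgeR) without the reporter-negative library numbered 2, and AREG, which had a log2 fold change of -0.00625 with total count scaling; the cause was not tested. Calls of ERBB3, ERBB2, NRG1, HBEGF and EREG held in every alternative that tested them. With total count scaling, 2268 genes rose in all and 4026 fell, and 10 pathway genes rose. Genes without an overlapping gene gave 1111 higher and 1093 lower in all, 2 higher and 0 lower members (ERBB2 and ERBB3 were not among those tested), and 5 higher and 6 lower pathway genes, since fewer genes were tested. Leaving out 1 library, with the lone library assumed to vary like the other line, gave 2333 to 4703 higher and 2025 to 4457 lower genes in all, 3 to 4 higher members, and 9 to 28 higher and 11 to 23 lower pathway genes. Libraries share a number between lines but nothing pairs them (correlation of their deviations -0.0258): with the library number as a replicate block, 4175 genes rose and 4051 fell, 20 and 17 pathway genes, and 4 and 2 members. Low counts limit EPGN and BTC.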

Other observations

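Among the luminal markers, FOXA1, a transcription factor gene of luminal breast cells, had 33 and 51 counts in the reporter-positive libraries, against 7 and 4 in the reporter-negative libraries, and passed (log2 fold change 3.05, standard error 0.50; adjusted p = 1.17e-04 by edgeR). It was singled out after its values were seen, and TTC6, whose start overlaps it by 213 bases, had 882% of its counts and rose too (log2 fold change 0.60, adjusted p = 0.0168 by edgeR), and how many reads of FOXA1 are its own was not tested. The luminal keratin genes KRT8 and KRT18 fell by 0.38 and 0.26 on the log2 scale, while ESR1, PGR, CDH1, GATA3 and EPCAM did not pass.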
